A study of Mus musculus with 6 samples.

Results

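The Zfp zinc finger genes of Min6 cells were examined in RNA recovered with an antibody against hnRNPK and in total RNA of the same kind of lysate. Genes were taken if their symbol began with Zfp and a number, if their mean level in total RNA was at least 5 CPM (counts divided by the library total and scaled to a standard depth), and if they were not Zfp36, Zfp36l1, Zfp36l2 or Zfp385a. The members were thus chosen by their measured level in total RNA, which is one side of the comparison reported here. Of 53379 genes in the deposited tables, 411 had a Zfp symbol after the exclusions and 259 of these passed the floor, among 11518 genes of any name that did.

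Min6 is a mouse insulinoma line. All 6 libraries came from passage 31 cells held in 25 mM glucose with 500 µM palmitic acid for 30 h, so no untreated cells enter the comparison and the result belongs to the glucolipotoxic state alone. The 3 hnRNPK IP libraries held RNA from antibody-coated beads given lysate with 200 µg of protein, and the 3 total RNA libraries held RNA from a 10% input. Min6 is 1 transformed line, no IP with a control antibody was analysed here, and no label ties a library to a separate culture, so the p-values cover only library-to-library spread, which may be technical.

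Total counts ran from 38764925 to 52735957 per library. IP libraries detected 17471 to 21306 genes and total RNA libraries 21805 to 22625. The biological coefficient of variation over all genes was 42.6% among IP and 12.2% among total RNA libraries. Beta cell markers summed to 20320 to 29650 CPM in total RNA, where the 8 listed genes were all measured. All 6 exocrine and duct markers stayed below 1 CPM there, 3 of them at 0, and the sum was 0.43 to 0.63 CPM. The 6 markers of other islet cells summed to 139 to 174 CPM in total RNA, nearly all of it Gcg at 131 to 164 CPM. Stromal, endothelial and immune markers summed to 2.79 to 4.08 CPM in total RNA and 6.18 to 7.91 CPM in IP, with no defining marker at 0 in every total RNA library.

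Zfp genes encode proteins with C2H2 zinc fingers, in which pairs of cysteines and histidines hold a zinc ion and the fold between them reads DNA or RNA bases. Many carry a KRAB box near the amino terminus, which recruits the corepressor Trim28 and the histone methyltransferase Setdb1 to silence transposons and some imprinted genes. Others act without KRAB in transcriptional activation, chromatin complexes, ubiquitin transfer, RNA processing or ribosome assembly. hnRNPK is an RNA-binding protein whose KH domains prefer runs of cytosine in single-stranded RNA.

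Because hnRNPK reads cytosine runs, the most C-rich 30-base window of the 3' UTR is shown for the members with the most extreme IP to total RNA ratios, in the GRCm38 build. Capitals mark tetramers with at least 3 C. The first 5 belong to members higher in the IP and the last 6 to members lower in it. Zfp580, also among the 6 highest, has no 3' UTR in the transcript model used.
Zfp609: CCCTCCgACCCCCGACCCTCCCTCttCCTC
Zfp703: gGCCCCTCCCAGCCCTTCCCCACCCACCCC
Zfp652: CCCCCACCCCAtacaGCCCACCCCACaacc
Zfp628: ACCCCCTCCCCGCaattaactgttCTCCTC
Zfp362: CCCAggagcagACCCTGCCCCCAGCCCCCC
Zfp707: CCCCTCCagccgaggCCACacacacaGCCC
Zfp637: tagggcaaactgacttttTCCCTCTCCCCC
Zfp622: acagatgcatCTCCCGCtgcactTCCCTCC
Zfp511: ggCCACCtacctgctctgcagcggctactc
Zfp472: tctaattcacaagactgcctgtgctctcac
Zfp330: CCCTCCCTtgccttgtccaaaagtccagtc
The windows of Zfp609, Zfp703 and Zfp652 held 20, 21 and 20 C, and those of Zfp472, Zfp511 and Zfp330 held 10, 13 and 13. The sets overlap, since the window of Zfp707 held 17 C and that of Zfp628 15. The Zfp609 window lies at chr9:65695505-65695534 on the minus strand, the Zfp703 window at chr8:26980105-26980134 on the plus strand and the Zfp330 window at chr8:82764138-82764167 on the minus strand. Over all members with at least 100 bases of 3' UTR, the best window had a median of 17 C in the 75 enriched and 14 C in the 81 depleted members, against 15 C in the 248 members and also in the 10082 genes past the floor. A longer 3' UTR offers more windows, and 3' UTR length went with the log2 fold change (Spearman correlation 0.37 over 257 members). The 3' UTRs of Zfp609, Zfp703 and Zfp652 had 3309, 1367 and 8294 nt. Those of Zfp472, Zfp511 and Zfp330 had 676, 281 and 608 nt. That of Zfp628 had 105 nt, and the part of length in these C counts was not tested. A C-rich window is a description of the sequence, not a binding site.

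All 259 members passed the low-count filter and none was at 0 in any library. The fewest reads of a member in a library were 16. Levels in total RNA, the values that chose the members, ran from 5.06 to 274 CPM with a median of 18.7. The 3 members just inside the floor were Zfp937 at 5.06, Zfp955b at 5.08 and Zfp202 at 5.10 CPM, and the 3 genes just outside were Zfp995 at 4.85, Zfp54 at 4.96 and Zfp931 at 5.00 CPM. Together the members took 0.738% to 0.905% of a library's counts. These are bulk libraries, in which fewer cells expressing a gene and less RNA per cell cannot be told apart.

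Per kilobase of exon, the highest members in total RNA were Zfp706 at 33.2 CPM per kb, Zfp91 at 23.5, Zfp367 at 20.6, Zfp598 at 20.0, Zfp106 at 18.5 and Zfp358 at 16.8. They did not share a direction in the IP. Zfp91, a ubiquitin ligase, had 900, 982 and 847 CPM in the IP libraries and 259, 222 and 226 in total RNA (these and later library values are CPM with TMM factors). Zfp706, a small protein with a single finger, had 110, 109 and 125 CPM in IP and 159, 167 and 171 in total RNA. Zfp367 had 29.9, 32.1 and 31.3 CPM in IP against 104, 117 and 119 in total RNA. The groups did not overlap for any of the 6, and 4 lay higher and 2 lower in IP. Of all genes past the floor, 83.8% were likewise without overlap.

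Across the members, hnRNPK IP held members in both directions. In edgeR's quasi-likelihood test, adjusted over all 16929 genes tested, 77 members (29.7%) were enriched in IP, 86 (33.2%) were depleted and 96 were not called at an adjusted p of 0.05. Over all tested genes 28.9% were enriched and 33.6% depleted, and over genes past the same floor 33.9% and 44.5%. The members' shares are thus near those of all tested genes, and both lie below those of genes past the same floor. Median level in total RNA was 18.7 CPM in members and 40.3 CPM in genes past the floor, and the part of level was not tested. No result about the family is read from these shares. The level that chose the members is part of this comparison. The direction rests on scaling, since with library totals in place of TMM factors 49 members were enriched and 132 depleted, while the median of all tested genes moved from -0.07 to -0.51.

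Fold changes of members spread less widely than those of all genes past the floor. Their median log2 fold change, IP minus total RNA, was -0.14 with quartiles at -0.71 and 0.66 and an SD of 1.06 across members. Genes past the floor had a median of -0.25, quartiles at -1.32 and 0.80 and an SD of 1.58. IP and total RNA libraries did not overlap for 187 members, or 72.2%, against 71.4% of all tested genes and 83.8% of genes past the floor. Each called member was without overlap, and 24 others were without overlap but not called. Among the 56 members at 5 to 10 CPM, 6 (10.7%) were enriched and 13 (23.2%) depleted, against 25.0% and 37.8% of all genes at that level. Among the 38 at 50 CPM or more, 21 (55.3%) were enriched and 11 (28.9%) depleted, against 39.8% and 44.0% of all such genes. Level in total RNA, which set these bins, is also 1 side of the fold change. Median mRNA length was 4747.5 nt in these 38 members and 3468 nt in all such genes. At 5 to 10 CPM it was 3373 and 2678.5 nt, and the part of length was not tested. Members varied more in IP, with a median coefficient of variation of 18.3% against 7.96% in total RNA.

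**Figure D1:**
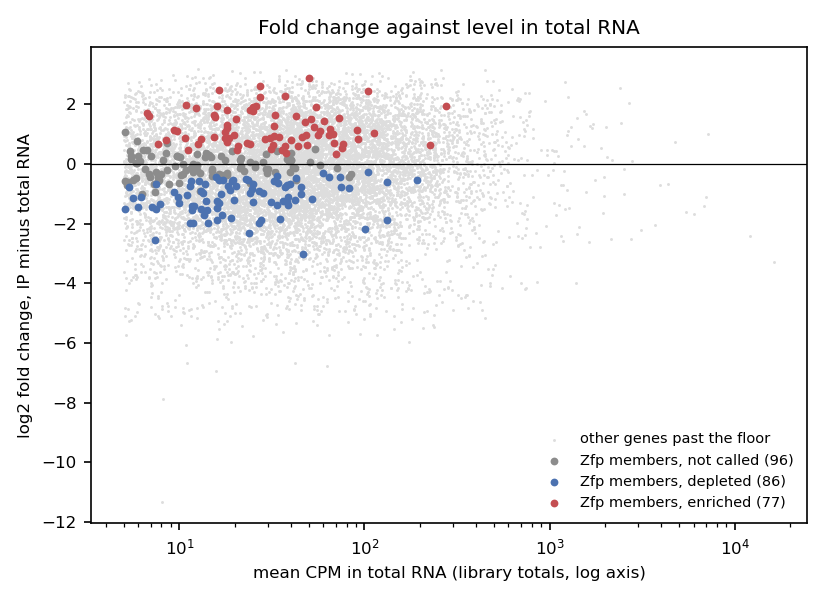
Log2 fold change, IP minus total RNA, of each gene past the floor (vertical axis) against its mean CPM in total RNA from library totals (horizontal axis, log scale). Small grey points are other genes, and large points are Zfp members that were enriched (77), depleted (86) or not called (96). The members lie between -3.02 and 2.89.

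The 6 highest members were Zfp609, Zfp703, Zfp580, Zfp652, Zfp628 and Zfp362. Zfp609, which binds the cohesin loader Nipbl and the Integrator complex in mouse neural progenitors, had 304, 366 and 288 CPM in IP and 45.4, 44.7 and 39.6 in total RNA. Its IP libraries all lay far above its total RNA libraries, at a log2 fold change of 2.89 ± 0.12 (SE; adjusted p = 1.57e-06, edgeR). Zfp703, a corepressor known from human breast cancer, had 149, 136 and 145 CPM in IP and 22.8, 24.8 and 23.1 in total RNA, a log2 fold change of 2.60 ± 0.09 (adjusted p = 1.26e-06). Zfp652, described in human cells as a repressor that works with CBFA2T3, had 470, 662 and 343 CPM in IP and 106, 80.2 and 81.8 in total RNA. Its IP libraries differed the most among the 6, yet the lowest stood above every total RNA library, and the log2 fold change was 2.46 ± 0.24 (adjusted p = 5.65e-05). Zfp580, Zfp628 and Zfp362 stood 4.76-fold to 5.53-fold above total RNA. Each of the 6 kept its call under all 17 alternative settings of the analysis. Exons of other genes overlap 20.0% of Zfp652 and 13.5% of Zfp703, and their reads cannot be told apart without a known strand setting.

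The 6 lowest members were Zfp330, Zfp472, Zfp511, Zfp622, Zfp637 and Zfp707. Zfp330, a cysteine-rich nucleolar protein, had 4.10, 4.43 and 6.36 CPM in IP and 38.4, 41.9 and 40.5 in total RNA. It was 8.09-fold lower in IP, at a log2 fold change of -3.02 ± 0.19 (adjusted p = 6.77e-06, edgeR). Zfp622, the counterpart of a yeast factor that matures the large ribosomal subunit, had 20.8, 12.5 and 24.8 CPM in IP and 84.9, 90.2 and 86.4 in total RNA, a log2 fold change of -2.17 ± 0.23 (adjusted p = 8.21e-05). Zfp472, with a KRAB box and 13 finger matches, had 1.06, 0.485 and 1.70 CPM in IP and 6.45, 6.97 and 5.67 in total RNA. Its IP libraries stayed below its total RNA libraries, and the log2 fold change was -2.55 ± 0.44 (adjusted p = 0.00121). Zfp637 had the widest spread, with 2.86, 0.667 and 4.14 CPM in IP and 7.58, 10.7 and 12.3 in total RNA. Its log2 fold change was -1.98 ± 0.56 (adjusted p = 0.0148), and without total RNA library 3 it was -1.79 and no longer called (adjusted p = 0.0524; range over alternatives 0.00104 to 0.17). In Zfp330, 19.1% of 50-base stretches recur in another gene, so its count may depend on how shared reads were assigned. Such stretches occur in 132 of the 259 members and make up more than 10% in 29.

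**Figure D2:**
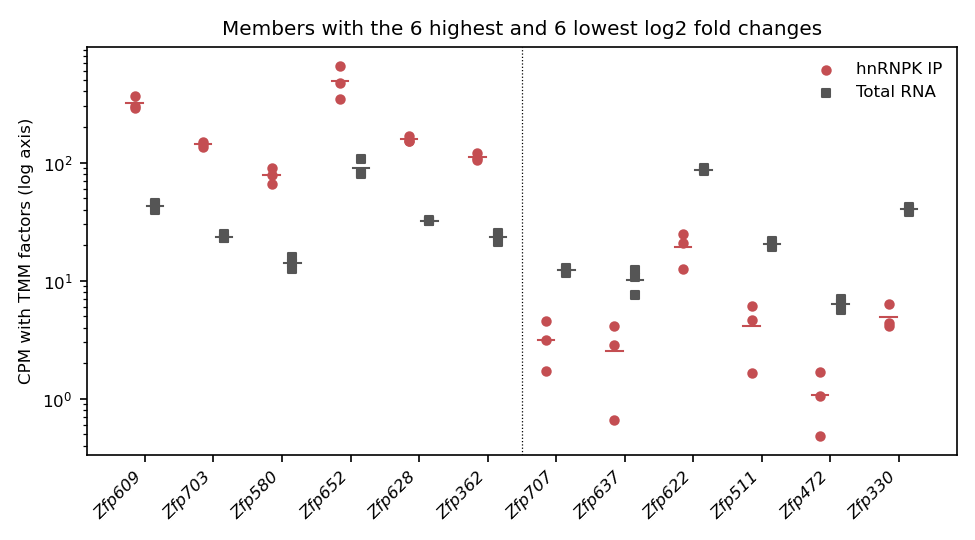
CPM with TMM factors (vertical axis, log scale) of the 6 highest and 6 lowest members by log2 fold change. Points are the 3 IP and 3 total RNA libraries and bars their means. No member shows overlap between the groups, and Zfp609 (2.89) and Zfp330 (-3.02) mark the ends.

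Members that act on RNA or ribosomes included the lowest of the family. Of 10 measured members of the 11 listed, 3 were enriched and 6 depleted, with a median log2 fold change of -1.01. These are 30% and 60%, beside 33.9% and 44.5% of genes past the floor. The list's mRNAs were short, at a median of 2734.5 nt, and of all genes past the floor shorter than 3136 nt, 61.9% were depleted. Beside Zfp330 and Zfp622 at the low end stood Zfp598, the ubiquitin ligase that marks collided ribosomes, at the high end. Zfp598 had 172, 153 and 191 CPM in IP and 71.7, 84.9 and 77.5 in total RNA, a log2 fold change of 1.14 ± 0.11. Zfp346, which binds double-stranded RNA, was enriched at 0.83 ± 0.12. Zfp106, an RNA-binding protein needed by motor neurons in mice, was enriched at 0.64 ± 0.15. An offset for gene length put Zfp106 at -0.03 with no call (adjusted p = 0.862, edgeR, with a range over alternatives of 5.21e-05 to 0.862). Exons of another gene overlap 26.1% of its exonic bases.

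Of the 5 members of the ubiquitin, SUMO and cell division list, 2 were enriched and 2 depleted. These are 40% and 40%, beside 33.9% and 44.5% of genes past the floor. Zfp91 led at 1.95 ± 0.10 (adjusted p = 2.90e-06, edgeR), and Zfp830, which is also on the RNA list, was lowest at -1.49 ± 0.40. Zfp830 had 7.53, 2.12 and 5.04 CPM in IP and 12.7, 15.7 and 12.9 in total RNA, and 4 of 17 alternative settings ended its call. Zfp451, a SUMO ligase, was at 0.51 ± 0.20 and not called (adjusted p = 0.0579). It was called enriched in 5 of 17 settings, among them without IP library 3 at 0.62 (adjusted p = 0.0129; range over alternatives 0.0129 to 0.779), and the length offset put it at -0.40 with no call. Zfp207, a spindle assembly factor that binds Bub3, was depleted at -0.27 ± 0.09 (adjusted p = 0.0351), and 12 of 17 settings ended that call, each single IP or total RNA library left out among them except IP library 3, with values of -0.26 to -0.22 there.

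Partners of chromatin complexes included Zfp609. Of 13 measured members of 14 listed, 8 were enriched and 0 depleted at an adjusted p of 0.05, with 5 not called and a median log2 fold change of 0.64. edgeR at an unadjusted p of 0.05, DESeq2 and limma-voom also gave 0 depleted. The enriched share of 61.5% stands beside 33.9% of genes past the floor, and the depleted share there was 44.5%. The list's median mRNA was 6816 nt, and of all genes past the floor longer than 4376 nt, 58.4% were enriched and 17.3% depleted. After Zfp609 came Zfp827, known in human cells for bringing a deacetylase complex to telomeres, with 162, 261 and 125 CPM in IP and 83.4, 50.4 and 53.4 in total RNA. The log2 fold change of Zfp827 was 1.55 ± 0.30 (adjusted p = 0.0023, edgeR). The lowest of the list was Zfp644, a partner of G9a, at -0.31 ± 0.15 with no call (adjusted p = 0.107). Without IP library 2, Zfp644 was at -0.41 and called depleted (adjusted p = 0.0334), with a range over alternatives of 0.000296 to 0.742. Zfp280d stood at 0.08 ± 0.12, not called, and was called depleted at -0.36 with library totals (adjusted p = 0.0307) and at -0.91 with the length offset (adjusted p = 0.000296).

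Of the 8 listed KRAB repressors with a known target, 4 were members, and 2 were enriched and 2 depleted. These are 50% and 50%, beside 33.9% and 44.5% of genes past the floor. Zfp809, which silences murine leukaemia virus through its primer binding site, had 56.3, 53.6 and 47.5 CPM in IP and 15.9, 13.3 and 11.7 in total RNA, a log2 fold change of 1.94 ± 0.15. Zfp568, the repressor of a placental Igf2 promoter, had 38.1, 41.2 and 33.2 CPM in IP and 69.8, 60.9 and 62.5 in total RNA, a log2 fold change of -0.78 ± 0.12. Each was without overlap, in opposite directions. Zfp746, the parkin substrate known as PARIS, was enriched at 0.60 ± 0.10, a call that 5 of 17 settings ended. Zfp932, a repressor of endogenous retroviruses, was depleted at -1.53 ± 0.26, and it shares 55.5% of its 50-base stretches with other genes.

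Of 11 measured activators and promoter binders, from 12 listed, 2 were enriched and 7 depleted, at a median log2 fold change of -0.74. That is 18.2% and 63.6%, beside 33.9% and 44.5% of genes past the floor. The list's median mRNA was 3109 nt, and of all genes past the floor shorter than 3136 nt, 19.6% were enriched and 61.9% depleted. The lowest were Zfp322a, a pluripotency factor, at -1.29 ± 0.20 and Zfp263 at -1.21 ± 0.16. Zfp148 at 0.83 ± 0.15 and Zfp384 at 0.62 ± 0.16 were the enriched pair, and 3 and 5 of 17 settings, in that order, ended their calls. Other genes share 16.8% of the 50-base stretches of Zfp384. Of 6 measured developmental regulators, from 12 listed, 5 were enriched (83.3%) and 1 depleted (16.7%), at a median of 0.95. Zfp367 was the depleted one, at -1.87 ± 0.10, while Zfp703 and Zfp362, a relative of the fly factor rotund, led the list. Zfp704 was at 0.72 ± 0.16, and the length offset put it at -0.17 with no call (adjusted p = 0.389; range over alternatives 3.59e-05 to 0.389).

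**Figure D3:**
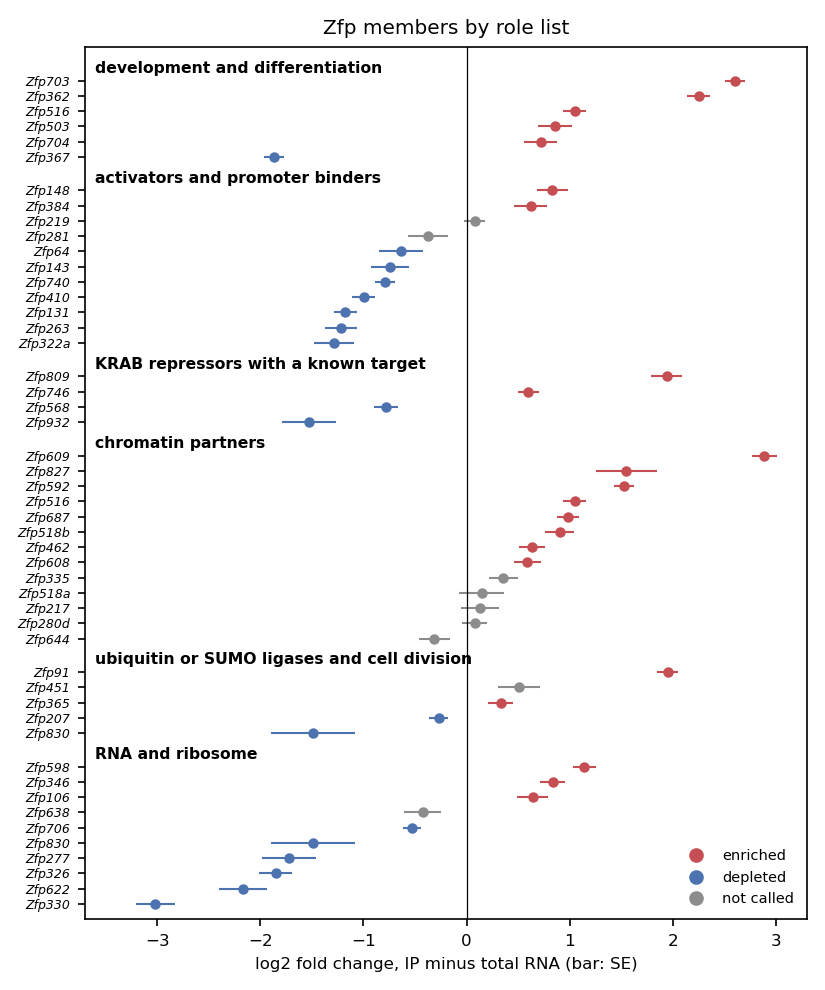
Log2 fold change, IP minus total RNA (horizontal axis), of each measured member of 6 role lists, with bars for the SE. Colours give the edgeR call. Zfp516 and Zfp830 are each drawn in both lists that hold them.

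In some sets of close relatives each member was called enriched. Zfp609 stood at 2.89 and its paralog Zfp608 at 0.59 ± 0.13, with 23.9, 29.9 and 26.5 CPM of Zfp608 in IP and 17.9, 18.6 and 16.9 in total RNA. Both were enriched, though 5 of 17 settings ended the call of Zfp608. Zfp703 stood at 2.60 and Zfp503, the other member of its pair, at 0.86 ± 0.17, a call that 4 of 17 settings ended. Zfp592 at 1.53 and Zfp687 at 0.98, which share a complex with Zmynd8, were both enriched in all 17.

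In other sets 1 relative was called and another was not. Zfp110, a protein that binds the p75 neurotrophin receptor, had 9.56, 12.1 and 11.6 CPM in IP and 28.4, 29.0 and 29.4 in total RNA, a log2 fold change of -1.38 ± 0.14. Its relative Zfp369 had 7.79, 12.6 and 5.58 CPM in IP and 5.89, 4.41 and 4.93 in total RNA, with overlap and no call (0.77 ± 0.32; adjusted p = 0.0659, edgeR), and was called without IP library 3 at 0.94 (adjusted p = 0.0201; range over alternatives 0.0201 to 0.573). Of the GC-box binders, Zfp148 was enriched and Zfp281 was at -0.37 ± 0.20, not called (adjusted p = 0.133), though called depleted without IP library 2 at -0.54 (adjusted p = 0.027; range 0.00729 to 0.701). Zfp280b at 1.00 and Zfp280c at 1.19 were enriched beside Zfp280d. Zfp518b (0.90) and Zfp512b (0.67) were enriched, whereas Zfp518a (0.15) and Zfp512 (-0.12) were not called. Zfp512 was called depleted with library totals at -0.56 and with the length offset at -0.54, and 4 of 17 settings ended the call of Zfp512b. The difference between relatives was not tested.

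Counts were next read by KRAB box, with no test between the classes. A KRAB-A box pattern matched the translated coding sequence of 116 members, of which 23 were enriched and 42 depleted (median log2 fold change -0.30). Of 141 members without a match, 54 were enriched and 44 depleted (median 0.02). The shares were 19.8% and 36.2% with the box and 38.3% and 31.2% without it, beside 33.9% and 44.5% of genes past the floor. The 2 remaining members have no coding model. The KRAB-bearing members also had lower levels in total RNA, at a median of 13.8 against 29.2 CPM, and mRNAs of 42.3% against 49.4% GC, and the part of these in the counts was not tested. The sequence pattern was revised after counts by class had been seen. Under the other 4 versions 60 to 121 members matched, their median ran from -0.33 to -0.29, and that of unmatched members from -0.03 to 0.04.

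Finger number showed little relation to the fold change. C2H2 matches per protein had a median of 10 and a maximum of 37, and the Spearman correlation with the log2 fold change was 0.04 over 257 members, which share libraries and many sequence features. Of the 34 members with 1 to 4 matches, 16 were enriched and 14 depleted. Members with 5 to 9 matches were at 18 and 29 of 74, and those with 10 to 14 at 22 and 32 of 87. Of the 56 members with at least 15, 17 (30.4%) were enriched and 9 (16.1%) depleted, with 30 not called, beside 33.9% and 44.5% of genes past the floor.

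Counts of enriched members went up with mRNA length. In the shortest tertile of members, under 3136 nt, 10 were enriched and 46 depleted of 86, and in the longest tertile, above 4376 nt, 43 were enriched and 13 depleted of 86. The Spearman correlation between mRNA length and log2 fold change was 0.45 over 257 members and 0.54 over 10674 genes past the floor. The same boundaries gave 1048 enriched and 3304 depleted of 5340 short genes past the floor and 1781 and 528 of 3048 long ones, so the trend is not particular to Zfp genes. Length also went with differences between libraries of 1 group: the Spearman correlation was 0.29 for the ratio of IP library 2 to library 3 and 0.48 for total RNA library 1 against the others. The part of that in the result was not tested. With an offset for gene length, 56 members were enriched and 103 depleted, and their median was -0.31. Genes past the floor gave 3340 and 5605 with that offset, at a median of -0.43.

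C-rich tetramers in the 3' UTR went the same way. In the tertile of members with the lowest density, below 27.9 per kb, 8 were enriched and 35 depleted of 83, and in the tertile with the highest density, above 42.4 per kb, 40 were enriched and 17 depleted of 83. The same boundaries gave 500 enriched and 1381 depleted of 2446 C-poor genes past the floor, and 2361 and 1871 of 5403 C-rich ones. The Spearman correlation of that density with the log2 fold change was 0.32 over 248 members and 0.26 over 10082 genes past the floor. For GC content against the log2 fold change it was 0.08 over 257 members. Splitting at the members' medians of 3683 nt and 34.0 tetramers per kb, 1 of 63 short and C-poor members was enriched and 33 were depleted. Of 66 long and C-rich members, 42 were enriched and 9 depleted. Short, C-rich members were at 17 and 20 of 58, and long, C-poor members at 15 and 19 of 61. Among genes past the floor, 10.8% of short, C-poor genes were enriched and 72.1% depleted, and of long, C-rich genes 61.8% and 16.9%. The short, C-rich class there was at 28.7% and 49.3%, and the long, C-poor class at 40.6% and 29.0%, against 24.6% and 31.1% of members in the latter class. The exception among short, C-poor members was Zfp398, chosen here after its values were seen, with 80.8, 112 and 69.6 CPM in IP and 32.5, 25.0 and 27.0 in total RNA.

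**Figure D4:**
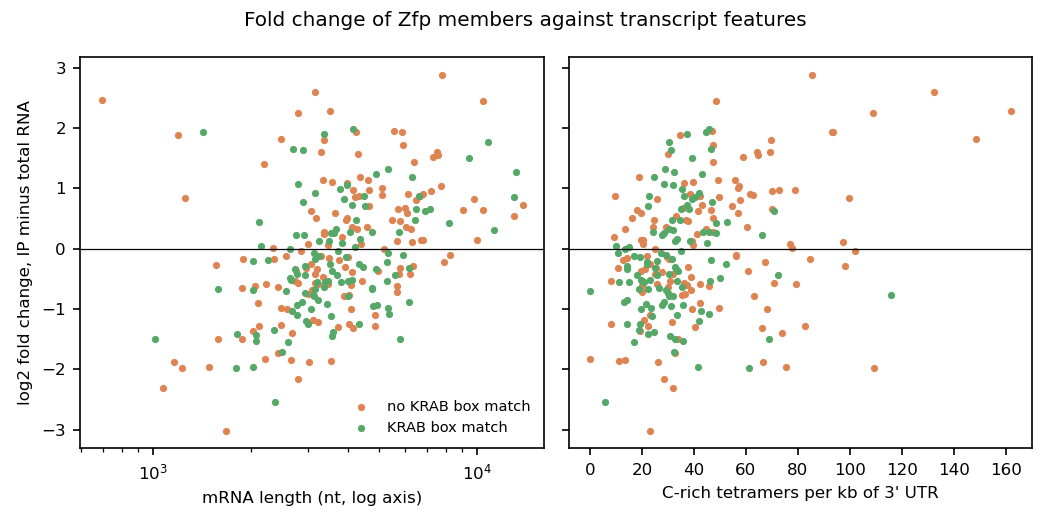
Log2 fold change of members (vertical axis) against mRNA length in nt (left, log scale) and against C-rich tetramers per kb of 3' UTR (right). Colours separate the 116 members with a KRAB box match from the 141 without. Higher values tend to lie to the right in both panels, with Spearman correlations of 0.45 and 0.32.

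**Figure D5:**
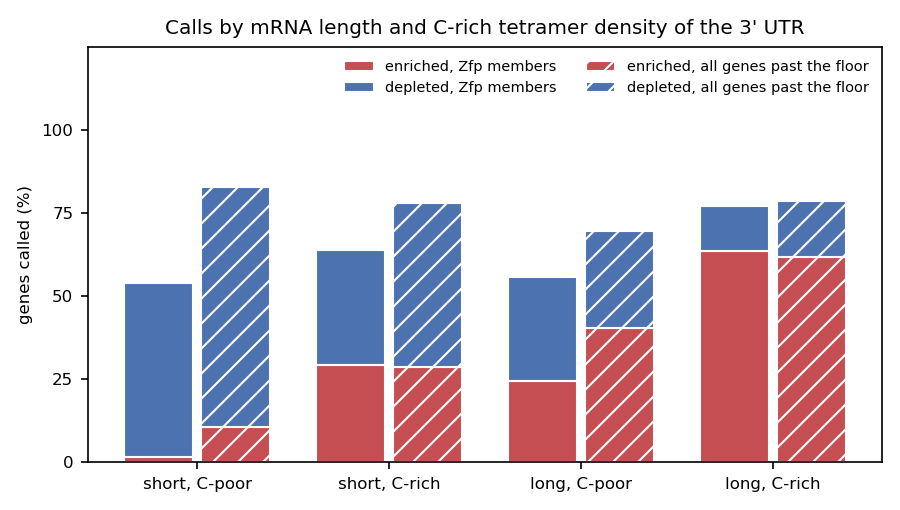
Percentage of genes called enriched (red) and depleted (blue), stacked, in 4 classes of mRNA length and C-rich tetramer density split at the members' medians. Plain bars are Zfp members and hatched bars all genes past the floor. Enriched members go from 1 of 63 in the short, C-poor class to 42 of 66 in the long, C-rich class.

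Length and the KRAB box were also crossed. Of 63 short KRAB-bearing members 5 were enriched and 28 depleted, and of 53 long ones 18 and 14. Of 66 short KRAB-less members 15 were enriched and 30 depleted, and of 75 long ones 39 and 14. Members sit on 20 chromosomes, and 64 on chromosome 7 and 35 on chromosome 17 make up the largest groups. On chromosome 7, 4 of 34 KRAB-bearing members were enriched and 15 depleted, while 13 of 30 KRAB-less members were enriched and 8 depleted. On chromosome 17, 2 of 26 KRAB-bearing members were enriched and 11 depleted, while 4 of 9 KRAB-less members were enriched and 2 depleted. With the box these are 11.8% and 44.1% on chromosome 7 and 7.69% and 42.3% on chromosome 17. Without it they are 43.3% and 26.7%, and 44.4% and 22.2%. Of all genes past the floor 33.9% were enriched and 44.5% depleted. On chromosome 15, 0 of 8 members were enriched and 7 depleted in edgeR at an adjusted p of 0.05, and an unadjusted p of 0.05, DESeq2 and limma-voom also gave 0 enriched. Chromosome 15 was picked out of 20 after its values were seen, and 33.9% of all genes past the floor were enriched and 44.5% depleted.

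The partner proteins of KRAB repressors were mixed. Of 27 corepressor genes, 7 were called enriched and 13 called depleted, at a median log2 fold change of -0.28. These shares of 25.9% and 48.1% are near those of genes past the floor (33.9% and 44.5%). Trim28 was depleted at -0.75 ± 0.14 (adjusted p = 0.00191, edgeR) and Setdb1 was at 0.01 ± 0.09 with no call (adjusted p = 0.954). Wiz at 2.28 and Cbx5 at 2.02 were the clearest of the enriched, and Rbbp7 and Mphosph8, each at -2.03, of the depleted. Of 22 tested among 33 Zkscan and Zscan genes, relatives with a SCAN domain, 10 (45.5%) were called enriched and 4 (18.2%) called depleted, beside 28.9% and 33.6% of all tested genes, at a median log2 fold change of 0.49. Zscan22 at 2.11 and Zkscan8 at 2.09 were the highest.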

How the data were processed

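TopHat2, featureCounts and the mm10 build are named in the submitters' processing notes. The deposited values are whole-number counts per gene with no normalization. Versions, strand setting, handling of reads with several alignments and annotation release are not given in the sources used. Identifiers were matched to GENCODE M21 (GRCm38) without version numbers, 53274 of 53379, leaving 105 with up to 0.0237% of the counts of any library. In R 4.3.3, edgeR 4.0.16 used TMM factors, filterByExpr (minimum count 10, total 15) and glmQLFit/glmQLFTest on group, with Benjamini-Hochberg adjustment over all genes tested. The SE is the absolute log2 fold change over the root of F. The fit was checked on simulated counts with the same spread in both groups and few changed genes. The real groups differed in spread and many genes were called, so that check does not cover these conditions. Alternatives used DESeq2 1.42.0 and limma 3.58.1.

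mRNA features come from the transcript with the longest complete coding sequence. C-rich tetramers are the 13 with at least 3 C. Fingers were matched as C-x(2,4)-C-x(12)-H-x(3,5)-H, and the KRAB-A box as [FY]-x-D-[VLI]-x(3)-F-x(3)-E-[EWL]. The design had sketched another KRAB pattern and called for it to be fixed before fold changes were joined. It was instead revised after fold changes by class had been seen, because known KRAB genes were missed, and the sketch and each revision are kept as alternatives. Members, lists and rules were chosen with earlier results of these data known. Tertiles, crossed classes, level bins, chromosomes, library ratios, windows and checks of shared sequence were chosen after fold changes had been seen.

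Genes named in the text are the 6 highest per kb, the 6 highest and 6 lowest called without overlap, 9 paralog sets, and up to 2 highest and 2 lowest of each role list. No label says that equal replicate numbers mark a shared lysate. The correlation of deviations was 0.000874, -0.0709 and 0.12 for equal numbers and -0.189 to 0.138 for unequal ones. Such values cannot show whether lysates were shared, since spread from the IP or library steps could hide it. Replicates of a group differed beyond sampling noise.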

Additional observations from a re-analysis of the deposited data

How the results depend on the processing

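Of 47 named genes, 24 kept their call under all 17 alternatives. Among them Zfp518a stayed uncalled, and its log2 fold change ran from -0.29 to 0.38. With library totals in place of TMM factors, 49 members were enriched and 132 depleted at a median of -0.58. Genes past the floor gave 2823 and 6484 there, against 3910 and 5130 in the main fit. With library totals 4 corepressor and 5 SCAN genes were enriched, and Zfp280d reversed to -0.36. With the gene length offset the median was -0.31, 6 SCAN genes were enriched, and Zfp280d (-0.91), Zfp106 (-0.033) and Zfp704 (-0.17) reversed. Zfp451, called neither in the main fit nor with the offset, also turned, to -0.40. Under the same offset 1 enriched member became depleted. With members chosen on 2 total RNA libraries and IP tested against the remaining one, 46, 54 and 52 were enriched and 35, 32 and 34 depleted, with medians of -0.24, -0.13 and -0.12, while the lone library was assumed to vary like the others. For library 1, genes past the floor gave 2707 and 3559 calls. Leaving out each library in turn gave 70 to 77 enriched, 64 to 101 depleted and medians of -0.18 to -0.07. Genes past the floor gave 3617 to 4011 enriched and 4477 to 5331 depleted. The replicate block gave 73 enriched and 79 depleted, on numbers that no label ties to a shared lysate. Genes past the floor gave 3740 and 4986 with that block. DESeq2 gave 85 and 86, limma-voom 78 and 97, halved counts 81 and 81, no low-count filter 73 and 86. In the same order, genes past the floor gave 4115 and 5107, 3955 and 5341, 4015 and 5045, and 3738 and 5141. Floors of 2 and 10 CPM gave 311 and 203 members, with 84 and 71 enriched and 95 and 73 depleted.

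KRAB pattern versions, chosen after seeing the data, changed class sizes. The pattern sketched in the design matched 60 members (10 enriched, 24 depleted, median -0.33) and left 197 (67, 62, -0.03), which turns the sign of the unmatched median. Version 3 matched 121 members but also 149 genes with no finger match, and was set aside. KRAB-bearing and KRAB-less medians were -0.73 and -0.41 with library totals and -0.40 and -0.27 with the length offset; without IP library 2 the KRAB-bearing median was -0.38.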
